A study of Mus musculus with 12 samples.

Results

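The tumour suppressor p53 and the genes it acts on were followed here as a set of 32 genes: Trp53, which encodes p53, its partners in feedback, and target genes that serve cell cycle arrest, apoptosis, death receptor signalling, metabolism and repair. The set was chosen by name, with no measured value in the rule, though earlier results of these data were known by then. Each of the 32 had an identifier among the 37991 in the count tables, and 32 passed the filter on low counts that left 15098 genes to test. p53 is a transcription factor that binds paired copies of a short DNA motif. In unstressed cells it is held low by Mdm2, an enzyme that marks it for destruction and is itself a p53 target, so that the pathway feeds back on itself. Fibroblasts are a classic setting for its study, since they arrest or become senescent through p53 when their DNA is damaged or culture stresses them. The Ing1 protein is a chromatin reader of the inhibitor of growth family that has been linked to p53, and Gadd45a, a DNA damage response gene, is itself a p53 target.

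The study compared mouse embryonic fibroblasts, connective tissue cells grown from embryos, of 4 genotypes with 3 RNA-seq libraries each: Gadd45a-/-;Ing1-/- (double knockout, DKO), Ing1-/- (Ing1 KO), Gadd45a-/- (Gadd45a KO) and wild type (WT). All came from male embryos of embryonic stage E15.5 from an interbreeding of both knockout lines on C57BL/6N. Cells were used at passage 4 and 80% confluency, with no further treatment given in the labels. The labels name no tissue-specific driver for either knockout, and no label ties a library to an embryo. The p-values therefore measure the spread between libraries, which may be technical.

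Gene counts ran from 31493168 to 42852059 per library, and levels are given as CPM, counts scaled to the TMM-adjusted library size in the usual way. Ing1 averaged 1.12 ± 0.19 CPM in labelled DKO and 1.22 ± 0.2 CPM in Ing1 KO, against 52.2 ± 2.4 CPM in labelled Gadd45a KO and 52.3 ± 2 CPM in WT (SD, n = 3 each). Gadd45a averaged 126 ± 6.3 CPM in labelled DKO, 18.4 ± 1.9 CPM in Ing1 KO, 99.99 ± 22 CPM in labelled Gadd45a KO and 21.1 ± 0.2 CPM in WT. It was thus higher in the libraries labelled as lacking it, and the sources used here do not give the deleted part of the gene. Those groups are therefore called labelled DKO and labelled Gadd45a KO, and every direction drawn from them rests on the labels. Fibroblast markers were high in every library, with 10 genes summing to 48412 to 64071 CPM, most of it from 3 collagen genes. Single markers differed all the same: 2 rose and 4 fell in Ing1 KO against WT, where 12.1% of all genes rose and 11.4% fell. In labelled DKO against WT 2 of the 10 fell (4 with only the compared groups in the fit) and none rose. There 15.6% of all genes rose and 10.3% fell. Dcn, chosen after its values were seen, averaged 164 ± 11 CPM in labelled DKO, 133 ± 33 CPM in Ing1 KO, 295 ± 19 CPM in labelled Gadd45a KO and 393 ± 43 CPM in WT. Pdgfra, chosen likewise, averaged 704 ± 93 CPM in labelled DKO, 412 ± 79 CPM in Ing1 KO, 675 ± 2 CPM in labelled Gadd45a KO and 716 ± 69 CPM in WT. Other markers were higher in Ing1 KO than in WT. Vim averaged 3181 ± 138 against 2481 ± 151 CPM and Thy1 1327 ± 105 against 1065 ± 25 CPM, both chosen likewise. The part of the fibroblast markers in the results below was not tested. The labelled DKO libraries stood apart in macrophage markers, all 17 of which rose against WT, against Ing1 KO and against labelled Gadd45a KO. Their sum was 2794, 2313 and 2235 CPM in labelled DKO, 413, 355 and 622 CPM in Ing1 KO, 139.8, 548 and 534 CPM in labelled Gadd45a KO and 264, 453 and 432 CPM in WT. In bulk RNA, fewer cells of a type and less RNA per cell cannot be told apart, and the part of these markers in the labelled DKO results below was not tested.

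p53 binds DNA through a motif of 10 bases called the p53 half-site consensus, of which a full site holds a pair within 13 bases of each other. RefSeq gave promoter windows, from 250 bases before to 50 bases after a transcription start, for 26 of the 32 genes (build GRCm38.p6). A half-site lay in a window of 10 of the 26 on either strand (38.5%), against 2582 of 27025 genes with a window (9.55%). Members were listed as p53 targets to begin with, so this share is a description of the list. The sequences below are shown because they belong to genes whose levels differed between the genotypes. Polk, which was also called, held a half-site too and is not shown. Capitals mark the half-sites, and each sequence reads 5′ to 3′ on the strand of the gene.
Trp53, chr11:69580274-69580303, + strand: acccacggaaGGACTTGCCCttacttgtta
Mdm2, chr10:117710925-117710954, - strand: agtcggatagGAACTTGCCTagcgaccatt
Ccng1, chr11:40755452-40755481, - strand: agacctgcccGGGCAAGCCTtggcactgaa
Bax, chr7:45467080-45467109, - strand: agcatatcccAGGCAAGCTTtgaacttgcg
Aen, chr7:78895927-78895956, + strand: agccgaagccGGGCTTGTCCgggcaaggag
Sesn1, chr10:41887256-41887285, + strand: cttggccttcAAGCTTGTTTttgctggcct

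A full site was found in 1 member only, Cdkn1a, and in 20 of the 27025 genes (0.074%). Its 2 half-sites begin 73 and 51 bases before the upstream of the gene's RefSeq starts, with 12 bases between them, and the other start lies 2790 bases away. The 250 bases before that upstream start are shown in full, since Cdkn1a is the best known p53 target.
Cdkn1a, chr17:29090729-29090978, + strand: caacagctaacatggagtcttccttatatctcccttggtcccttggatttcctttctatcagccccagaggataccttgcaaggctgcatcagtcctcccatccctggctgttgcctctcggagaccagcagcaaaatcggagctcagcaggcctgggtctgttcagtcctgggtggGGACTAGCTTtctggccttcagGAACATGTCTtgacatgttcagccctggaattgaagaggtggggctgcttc
Capitals mark exact matches only. The 10 bases right after the second Cdkn1a half-site miss the consensus at their first base alone and are left unmarked. The marked pair therefore need not be the pair that p53 binds. A match to the motif is a description and not a measured binding site, and genes without a match may be bound elsewhere.

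Much of the p53 set was higher in Ing1 KO than in WT. In Ing1 KO against WT, 20 of the 32 genes were called at an edgeR adjusted p under 0.05, 16 higher and 4 lower, where 23.5% of all genes tested were called, 12.1% higher and 11.4% lower. The median log2 fold change of the 32 was 0.27, beside 0 over all genes, and the median fold of the 16 that rose was 1.28. Labelled DKO against WT had 12 called, 5 higher and 7 lower, with 25.9% of all genes called, 15.6% higher and 10.3% lower, and a median of -0.11 beside 0.01 over all genes. The 12 became 5 without labelled DKO replicate 1, and 8 without labelled DKO replicate 2 or without WT replicate 1. Under upper-quartile scaling there were 4 higher and 11 lower. In labelled Gadd45a KO against WT, edgeR called 0 of the 32, with 0.00662% of all genes called, and DESeq2 called 0 too. There 3 members, Plk3, Bbc3 and Fas, had an unadjusted p under 0.05, as did 8.82% of all genes, and the 32 log2 fold changes lay between -0.18 and 0.31. Of the 32 genes, 26 were called in at least 1 of 6 comparisons. The share of all genes called in at least 1 of them was not computed, so this count only describes the set.

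**Figure D1:**
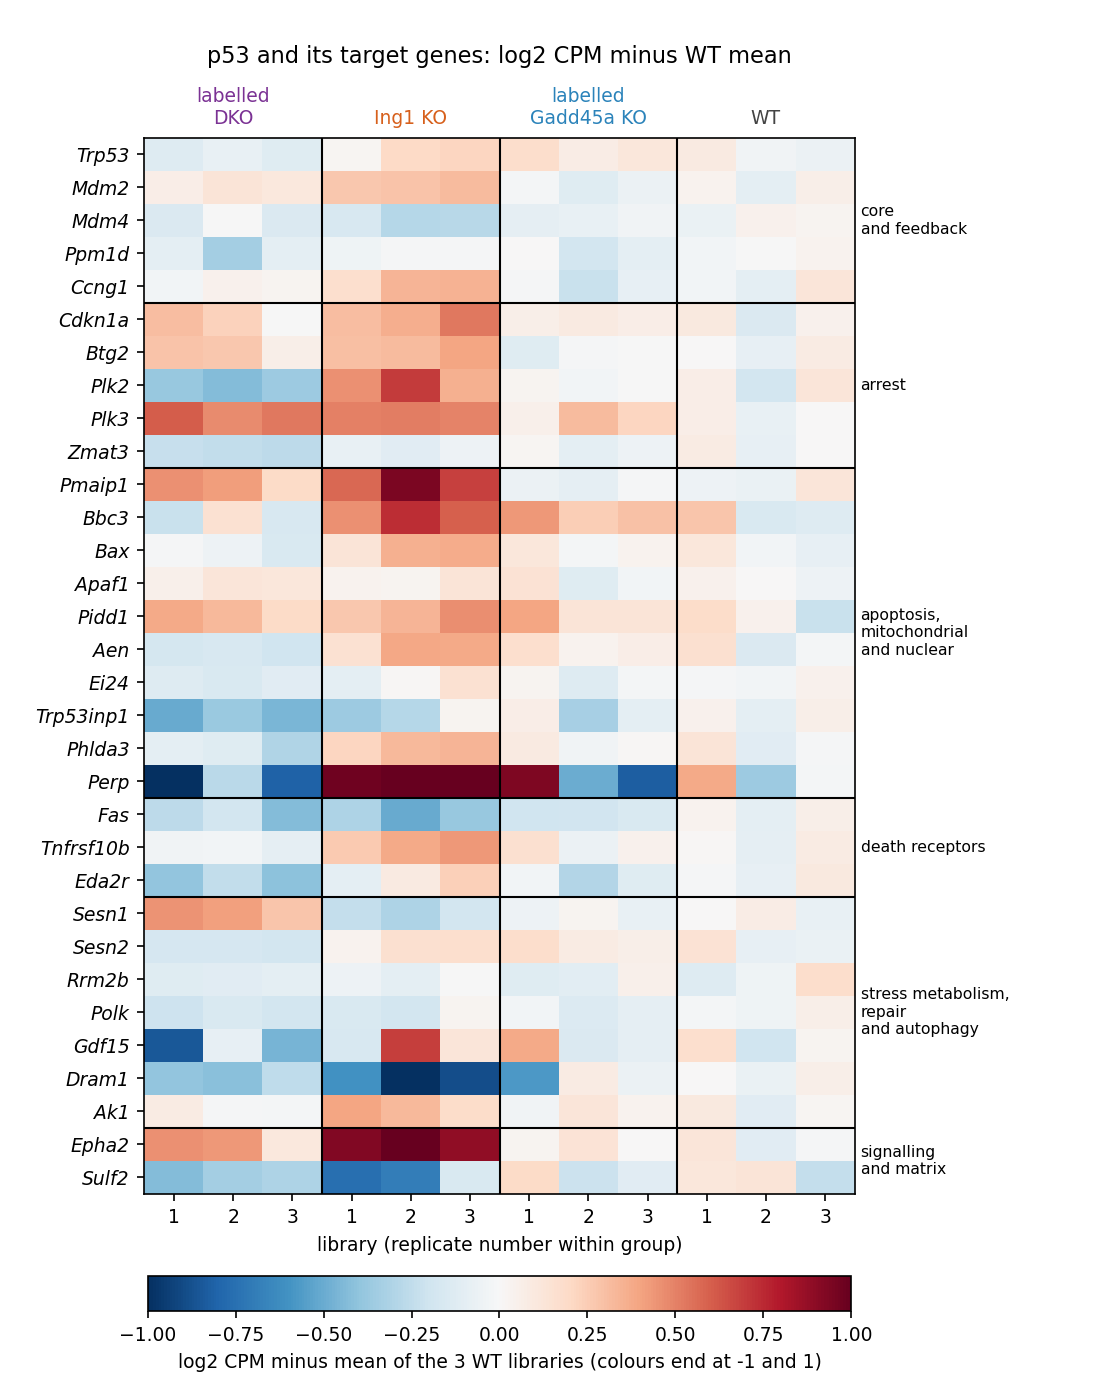
Log2 CPM of the 32 genes (rows, grouped by role) in the 12 libraries (columns, grouped by genotype), each row less its mean over the 3 WT libraries. Colours end at -1 and 1. Most rows of the arrest and apoptosis groups have their highest group mean in Ing1 KO, while Mdm4, Fas and Dram1 are low there and Sesn1 is highest in labelled DKO.

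Levels were spread widely in WT. Per kilobase of exon, Ccng1 was the highest at a mean of 163 CPM per kb, followed by Cdkn1a at 103, Sulf2 at 88.9 and Phlda3 at 78.6 CPM per kb. Trp53 itself stood at 25.8 CPM per kb. Perp at 0.558 and Gdf15 at 0.816 CPM per kb were lowest. The smallest count of any member in any library was 16. Exons of Cdkn1a, Plk3, Ei24, Rrm2b and Sulf2 overlap those of a gene on the opposite strand, and exons of Bax those of a gene on the same strand, so the counts of these 6 genes are uncertain by what the partner gives.

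Among the core and feedback genes, Mdm2 and Ccng1 rose and Mdm4 fell in Ing1 KO, while Trp53 RNA itself was not called there. Under an alternative setting Trp53 was called there. Trp53 stood at 95.3, 99.3 and 95.9 CPM in labelled DKO, 106, 119.7 and 121 CPM in Ing1 KO, 118, 109.7 and 113 CPM in labelled Gadd45a KO and 111, 102 and 99.98 CPM in WT. The labelled DKO libraries were the lowest 3 of the 12, and the Ing1 KO libraries overlapped those of WT and of labelled Gadd45a KO. Trp53 fell in labelled DKO against labelled Gadd45a KO (log2 fold change -0.23 ± 0.06, edgeR adjusted p = 0.0101) and against Ing1 KO (log2 fold change -0.25 ± 0.06, edgeR adjusted p = 0.00644). Against WT the labelled DKO change was -0.11 ± 0.06 on the log2 scale with an edgeR adjusted p of 0.189, and the Ing1 KO change was 0.15 ± 0.06 with 0.0822.

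Mdm2, the negative regulator of p53, was highest in Ing1 KO. Mdm2 stood at 109.5, 114 and 112 CPM in labelled DKO, 126, 127 and 130.00 CPM in Ing1 KO, 103, 95.9 and 100.3 CPM in labelled Gadd45a KO and 107, 97.6 and 109 CPM in WT. The 3 Ing1 KO libraries lay above the other 9, and the 3 labelled DKO libraries came next, above all labelled Gadd45a KO and WT libraries. Mdm2 rose in Ing1 KO against WT (log2 fold change 0.29 ± 0.05, edgeR adjusted p = 0.00107) and in labelled DKO against labelled Gadd45a KO (log2 fold change 0.17 ± 0.05, edgeR adjusted p = 0.0175), and it fell in labelled DKO against Ing1 KO (log2 fold change -0.19 ± 0.05, edgeR adjusted p = 0.00977). The rise against labelled Gadd45a KO was not called without labelled Gadd45a KO replicate 2 (edgeR adjusted p = 0.105) or labelled DKO replicate 2 (0.0672), nor under upper-quartile scaling (0.0534). Ccng1, which encodes cyclin G1 and acts on Mdm2, was the most abundant member. Ccng1 stood at 561, 591 and 585 CPM in labelled DKO, 643, 724 and 729 CPM in Ing1 KO, 569, 492 and 540.3 CPM in labelled Gadd45a KO and 562, 535 and 624 CPM in WT. Again the Ing1 KO libraries were the top 3, while the other groups overlapped. Ccng1 rose in Ing1 KO against WT (log2 fold change 0.28 ± 0.07, edgeR adjusted p = 0.0101) and fell in labelled DKO against Ing1 KO (log2 fold change -0.27 ± 0.07, edgeR adjusted p = 0.0121). Without WT replicate 2 the first of these had an edgeR adjusted p of 0.054, and the second had 0.0541 without Ing1 KO replicate 2 and 0.0515 without labelled DKO replicate 1.

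Mdm4, a relative of Mdm2 that blocks the activation domain of p53, moved the other way. Mdm4 stood at 43.1, 47.6 and 43.05 CPM in labelled DKO, 42.7, 39.2 and 39.4 CPM in Ing1 KO, 44.8, 45.2 and 46.6 CPM in labelled Gadd45a KO and 45.6, 49.02 and 48.5 CPM in WT. The Ing1 KO libraries were the lowest 3 of the 12. Mdm4 fell in Ing1 KO against WT (log2 fold change -0.24 ± 0.05, edgeR adjusted p = 0.00664) and was called in no other comparison. Alternative settings also called Mdm4 in labelled DKO against Ing1 KO, and for the difference between both changes on loss of Ing1 given below. Ppm1d, the phosphatase Wip1 that switches p53 signalling off, was called in none and ran from 11.6 to 15.1 CPM over the 12 libraries. An alternative setting called it in labelled DKO against WT.

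**Figure D2:**
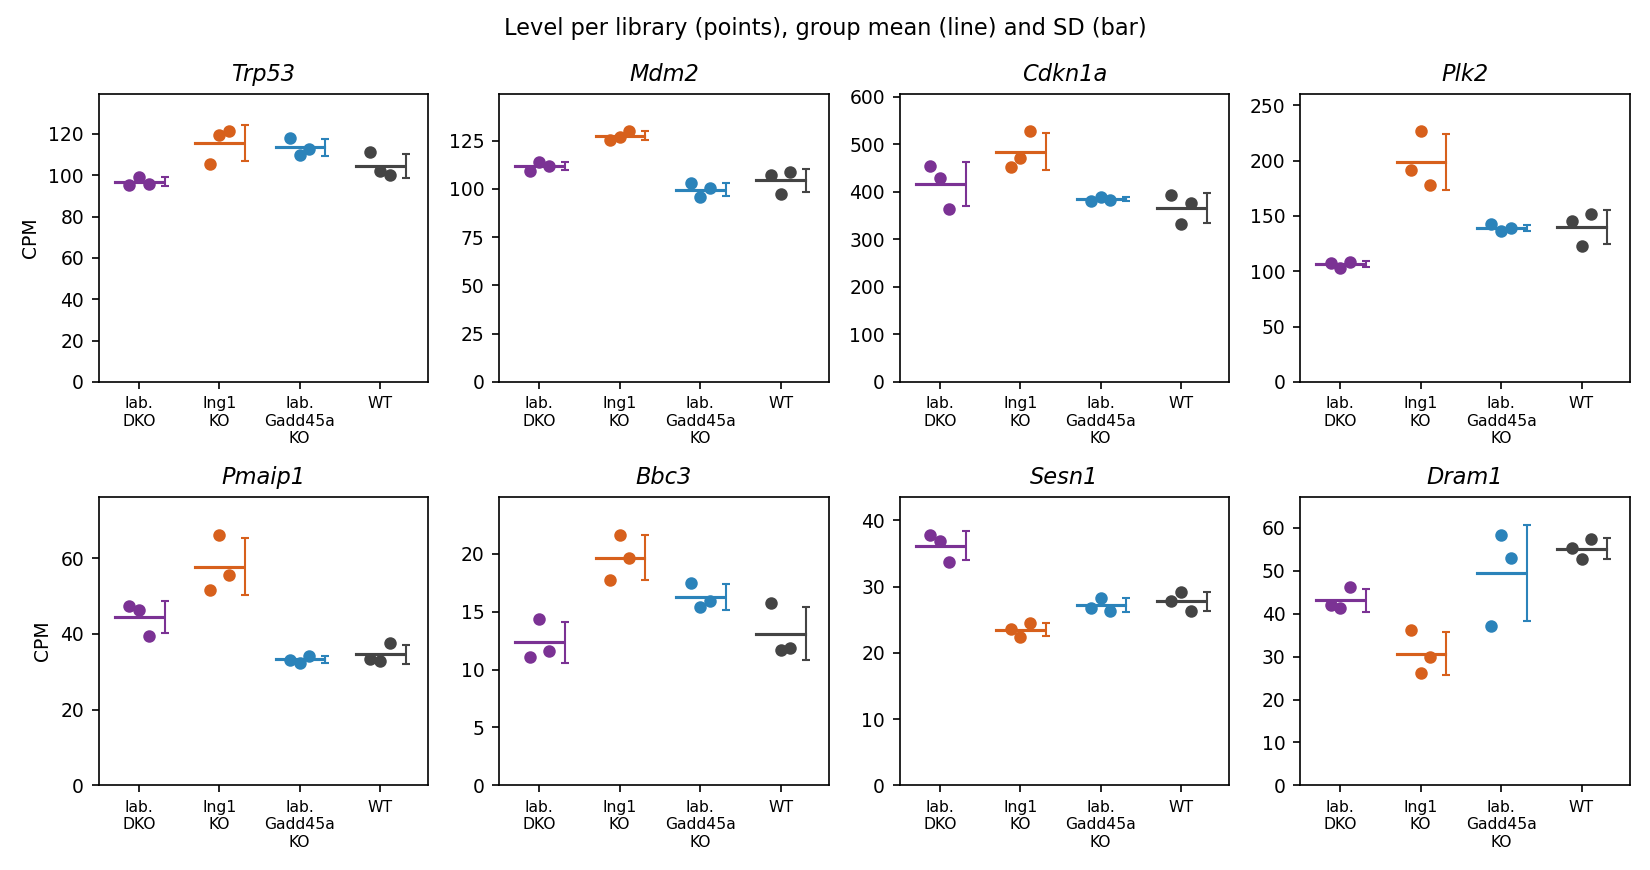
CPM of 8 genes in each library (points) with the group mean and SD (bars), groups in the order labelled DKO, Ing1 KO, labelled Gadd45a KO and WT. Mdm2, Cdkn1a, Plk2, Pmaip1 and Bbc3 have their highest group mean in Ing1 KO, and Sesn1 in labelled DKO. Trp53 is lowest in labelled DKO, and Dram1 is lowest in Ing1 KO.

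Of the 5 genes of cell cycle arrest, 4 rose in Ing1 KO and none fell. Cdkn1a encodes p21, the inhibitor of cyclin-dependent kinases through which p53 stops the cycle. Cdkn1a stood at 454, 429.7 and 364 CPM in labelled DKO, 453, 471 and 528 CPM in Ing1 KO, 381, 389 and 383 CPM in labelled Gadd45a KO and 392, 332 and 376 CPM in WT. All 3 Ing1 KO libraries lay above all WT and labelled Gadd45a KO libraries, while labelled DKO spread over both ranges. Cdkn1a rose in Ing1 KO against WT (log2 fold change 0.40 ± 0.08, edgeR adjusted p = 0.00525) and passed in no other comparison. Alternative settings also called Cdkn1a in labelled DKO against WT and against Ing1 KO. Its labelled DKO value against WT was 0.18 ± 0.08 on the log2 scale (edgeR adjusted p = 0.135).

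Btg2, an antiproliferative target of p53, was high in both genotypes that lack Ing1. Btg2 stood at 78.9, 78.01 and 67.5 CPM in labelled DKO, 79.6, 80.6 and 85.2 CPM in Ing1 KO, 59.4, 64.05 and 64.5 CPM in labelled Gadd45a KO and 64.9, 61.1 and 68.4 CPM in WT. The Ing1 KO libraries were the highest, and labelled DKO replicate 3 overlapped WT. Btg2 rose in Ing1 KO against WT (log2 fold change 0.34 ± 0.06, edgeR adjusted p = 0.00256), in labelled DKO against labelled Gadd45a KO (log2 fold change 0.26 ± 0.06, edgeR adjusted p = 0.00955) and in labelled DKO against WT (log2 fold change 0.21 ± 0.06, edgeR adjusted p = 0.0278). The last call was lost without labelled DKO replicate 1 or 2, or WT replicate 1 or 2 (edgeR adjusted p = 0.0667 to 0.126), and under upper-quartile scaling (0.0653). Plk3, a stress-responsive polo-like kinase, was higher in both genotypes that lack Ing1. Plk3 stood at 13.8, 12.6 and 13.1 CPM in labelled DKO, 12.9, 12.9 and 12.8 CPM in Ing1 KO, 9.43, 11.3 and 10.6 CPM in labelled Gadd45a KO and 9.53, 8.64 and 9.08 CPM in WT. The 6 libraries lacking Ing1 lay above the other 6. Plk3 rose in Ing1 KO against WT (log2 fold change 0.50 ± 0.08, edgeR adjusted p = 0.000838), in labelled DKO against WT (log2 fold change 0.53 ± 0.08, edgeR adjusted p = 0.000425) and in labelled DKO against labelled Gadd45a KO (log2 fold change 0.34 ± 0.08, edgeR adjusted p = 0.00608).

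Plk2, a related kinase, went opposite ways in the 2 genotypes. Plk2 stood at 107, 103 and 108 CPM in labelled DKO, 191, 227 and 178 CPM in Ing1 KO, 142, 137 and 139 CPM in labelled Gadd45a KO and 146, 123 and 151 CPM in WT. The groups did not overlap on either side: the Ing1 KO libraries lay above, and the labelled DKO libraries below, all WT and labelled Gadd45a KO libraries. Plk2 rose in Ing1 KO against WT (log2 fold change 0.51 ± 0.09, edgeR adjusted p = 0.00194). It fell in labelled DKO against WT (log2 fold change -0.40 ± 0.09, edgeR adjusted p = 0.00579), against labelled Gadd45a KO (log2 fold change -0.39 ± 0.09, edgeR adjusted p = 0.00648) and against Ing1 KO (log2 fold change -0.90 ± 0.09, edgeR adjusted p = 9.74e-05). Zmat3, an RNA-binding protein gene, fell by a small margin in labelled DKO. Zmat3 stood at 191, 189 and 188 CPM in labelled DKO, 213, 208 and 217 CPM in Ing1 KO, 228, 209.6 and 217 CPM in labelled Gadd45a KO and 238, 212 and 225 CPM in WT. The labelled DKO libraries were the lowest 3. Zmat3 fell against WT (log2 fold change -0.25 ± 0.05, edgeR adjusted p = 0.00204), against labelled Gadd45a KO (log2 fold change -0.20 ± 0.05, edgeR adjusted p = 0.00635) and against Ing1 KO (log2 fold change -0.17 ± 0.05, edgeR adjusted p = 0.0189). The fall against Ing1 KO had an edgeR adjusted p of 0.0575 without Ing1 KO replicate 3 and 0.0553 without labelled DKO replicate 2.

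Of the 10 apoptosis genes, 7 rose in Ing1 KO against WT and none fell. Pmaip1 and Bbc3 encode Noxa and Puma, BH3-only proteins that disable survival members of the Bcl-2 family. Pmaip1 stood at 47.4, 46.3 and 39.6 CPM in labelled DKO, 51.5, 66.2 and 55.7 CPM in Ing1 KO, 33.2, 32.4 and 34.2 CPM in labelled Gadd45a KO and 33.4, 32.98 and 37.5 CPM in WT. Every library lacking Ing1 lay above every library that has it, and Ing1 KO lay above labelled DKO. Pmaip1 rose in Ing1 KO against WT (log2 fold change 0.74 ± 0.09, edgeR adjusted p = 0.000334), in labelled DKO against labelled Gadd45a KO (log2 fold change 0.42 ± 0.09, edgeR adjusted p = 0.00609) and in labelled DKO against WT (log2 fold change 0.36 ± 0.09, edgeR adjusted p = 0.0132), and was lower in labelled DKO than in Ing1 KO (log2 fold change -0.38 ± 0.09, edgeR adjusted p = 0.00996). Its call against WT in labelled DKO was lost without labelled DKO replicate 1 or 2 or WT replicate 1 or 2 (edgeR adjusted p = 0.0541 to 0.0645).

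Bbc3 showed opposite changes. Bbc3 stood at 11.1, 14.4 and 11.6 CPM in labelled DKO, 17.8, 21.7 and 19.6 CPM in Ing1 KO, 17.5, 15.4 and 15.9 CPM in labelled Gadd45a KO and 15.7, 11.7 and 11.9 CPM in WT. The Ing1 KO libraries were the top 3, and the labelled DKO libraries lay below all labelled Gadd45a KO libraries while overlapping WT. Bbc3 rose in Ing1 KO against WT (log2 fold change 0.59 ± 0.13, edgeR adjusted p = 0.00587) and fell in labelled DKO against Ing1 KO (log2 fold change -0.67 ± 0.13, edgeR adjusted p = 0.00269) and against labelled Gadd45a KO (log2 fold change -0.40 ± 0.13, edgeR adjusted p = 0.0359). The last call was lost without labelled DKO replicate 1 or 3, or labelled Gadd45a KO replicate 1 or 3 (edgeR adjusted p = 0.0716 to 0.135). Aen, an apoptosis-enhancing nuclease gene, had the same pattern. Aen stood at 91.4, 92.5 and 89.9 CPM in labelled DKO, 115, 135 and 135 CPM in Ing1 KO, 116, 106 and 108 CPM in labelled Gadd45a KO and 116, 93.7 and 102 CPM in WT. Labelled DKO held the lowest 3 libraries, and Ing1 KO replicate 1 lay below WT replicate 1. Aen rose in Ing1 KO against WT (log2 fold change 0.30 ± 0.08, edgeR adjusted p = 0.0131) and fell in labelled DKO against Ing1 KO (log2 fold change -0.49 ± 0.08, edgeR adjusted p = 0.001) and against labelled Gadd45a KO (log2 fold change -0.27 ± 0.08, edgeR adjusted p = 0.0205). The rise was not called without Ing1 KO replicate 2 or WT replicate 2 or 3 (edgeR adjusted p = 0.0501 to 0.0634) or with only the compared groups in the fit (0.0583). The fall against labelled Gadd45a KO was not called without labelled Gadd45a KO replicate 1 or without any 1 of the labelled DKO replicates (0.0506 to 0.0826).

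Bax, which encodes the protein that opens the outer mitochondrial membrane, and Phlda3, a repressor of Akt signalling, rose in Ing1 KO with the other apoptosis genes. Bax stood at 105, 102 and 94.9 CPM in labelled DKO, 115, 134 and 136 CPM in Ing1 KO, 114, 104 and 108 CPM in labelled Gadd45a KO and 114, 103 and 99.4 CPM in WT. Phlda3 stood at 114, 113 and 98.95 CPM in labelled DKO, 141, 153 and 155 CPM in Ing1 KO, 129.8, 119 and 123 CPM in labelled Gadd45a KO and 134, 113 and 121 CPM in WT. In both, the Ing1 KO libraries were the highest 3, and labelled DKO overlapped WT. Bax rose in Ing1 KO against WT (log2 fold change 0.28 ± 0.07, edgeR adjusted p = 0.0107), with an edgeR adjusted p of 0.0547 without Ing1 KO replicate 2, and fell in labelled DKO against Ing1 KO (log2 fold change -0.35 ± 0.07, edgeR adjusted p = 0.00304). Phlda3 rose in Ing1 KO against WT (log2 fold change 0.29 ± 0.07, edgeR adjusted p = 0.00896) and fell in labelled DKO against Ing1 KO (log2 fold change -0.46 ± 0.07, edgeR adjusted p = 0.000634). Pidd1, a scaffold that activates caspase-2, also rose in Ing1 KO. Pidd1 stood at 16.3, 15.6 and 14.3 CPM in labelled DKO, 15.1, 15.8 and 17.2 CPM in Ing1 KO, 16.4, 13.6 and 13.6 CPM in labelled Gadd45a KO and 14.2, 12.8 and 10.7 CPM in WT. All Ing1 KO and labelled DKO libraries lay above all WT libraries, and labelled Gadd45a KO overlapped each group. Pidd1 rose in Ing1 KO against WT (log2 fold change 0.35 ± 0.11, edgeR adjusted p = 0.0291), a call lost without Ing1 KO replicate 2 or 3 or WT replicate 2 or 3 (0.0696 to 0.111) and with only the compared groups in the fit (0.0577).

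Perp, a membrane protein gene of p53-driven apoptosis and of epithelial junctions, had the largest fold change of the set at the lowest level. Perp stood at 0.46, 0.885 and 0.61 CPM in labelled DKO, 2.09, 2.96 and 2.97 CPM in Ing1 KO, 2.03, 0.757 and 0.603 CPM in labelled Gadd45a KO and 1.39, 0.829 and 1.05 CPM in WT. The Ing1 KO libraries were the highest 3, labelled Gadd45a KO replicate 1 came close to them, and labelled DKO overlapped the rest. Perp rose in Ing1 KO against WT (log2 fold change 1.30 ± 0.38, edgeR adjusted p = 0.0295) and fell in labelled DKO against Ing1 KO (log2 fold change -2.05 ± 0.41, edgeR adjusted p = 0.00438). The rise was not called without Ing1 KO replicate 2 or 3 or WT replicate 2 or 3 (edgeR adjusted p = 0.0704 to 0.116), nor with no filter on low counts (0.0554). The 5 epithelial markers summed to 4.46, 3.41 and 3.34 CPM in labelled DKO, 2.04, 2.72 and 2.09 CPM in Ing1 KO, 1.22, 2.75 and 0.997 CPM in labelled Gadd45a KO and 1.55, 1.20 and 1.86 CPM in WT, and 2 of the 5 passed the filter. The labelled DKO sum was mostly Cdh1, at 2.48 ± 1 CPM in labelled DKO, 0.559 ± 0.14 CPM in Ing1 KO, 0.644 ± 0.56 CPM in labelled Gadd45a KO and 0.424 ± 0.13 CPM in WT. Krt18, like Perp, had its highest mean in Ing1 KO, at 1.06 ± 0.54 CPM in labelled DKO, 1.47 ± 0.33 CPM in Ing1 KO, 0.807 ± 0.52 CPM in labelled Gadd45a KO and 0.833 ± 0.14 CPM in WT, and was called in no comparison. Of the other epithelial markers, Cdh1 had its highest mean in labelled DKO, Epcam in labelled Gadd45a KO, and Krt8 and Krt5 in WT. The part of these markers in the Perp result was not tested.

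Trp53inp1, a p53-induced nuclear protein gene that also acts in autophagy, was called in 1 comparison. Alternative settings also called it in Ing1 KO against WT and in labelled DKO against labelled Gadd45a KO. Trp53inp1 stood at 159, 175 and 165 CPM in labelled DKO, 176, 185 and 229.9 CPM in Ing1 KO, 237, 179.5 and 211 CPM in labelled Gadd45a KO and 233, 211 and 235 CPM in WT. The labelled DKO libraries were the lowest 3. Trp53inp1 fell in labelled DKO against WT (log2 fold change -0.45 ± 0.11, edgeR adjusted p = 0.0137), with an edgeR adjusted p of 0.0534 without labelled DKO replicate 1 and of 0.05, just over the threshold, without WT replicate 1. Apaf1, the core of the apoptosome, and Ei24, an endoplasmic reticulum protein gene, were called in no comparison. They ran from 83.98 to 101 CPM and from 104 to 129 CPM. Alternative settings called Apaf1 in labelled DKO against labelled Gadd45a KO, and Ei24 in labelled DKO against WT and against Ing1 KO.

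The 3 death receptors differed from each other. Tnfrsf10b encodes the mouse receptor for the death ligand Trail. Tnfrsf10b stood at 48.6, 48.8 and 46.7 CPM in labelled DKO, 59.7, 64.6 and 67.2 CPM in Ing1 KO, 55.5, 47.8 and 51.1 CPM in labelled Gadd45a KO and 50.1, 46.7 and 52.6 CPM in WT. Ing1 KO held the highest 3 libraries, and the other groups overlapped. Tnfrsf10b rose in Ing1 KO against WT (log2 fold change 0.36 ± 0.06, edgeR adjusted p = 0.00165) and fell in labelled DKO against Ing1 KO (log2 fold change -0.41 ± 0.06, edgeR adjusted p = 0.000745). Fas, the receptor of Fas ligand, went down. Fas stood at 15.6, 16.4 and 13.8 CPM in labelled DKO, 15.1, 13.2 and 14.4 CPM in Ing1 KO, 16.3, 16.4 and 16.8 CPM in labelled Gadd45a KO and 19.2, 17.5 and 19.4 CPM in WT. The WT libraries were the highest 3 of the 12. Fas fell in Ing1 KO against WT (log2 fold change -0.39 ± 0.08, edgeR adjusted p = 0.00305) and in labelled DKO against WT (log2 fold change -0.29 ± 0.08, edgeR adjusted p = 0.0127). In labelled Gadd45a KO against WT it was at -0.18 ± 0.08 on the log2 scale (edgeR adjusted p = 0.537).

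Eda2r, the receptor of an ectodysplasin isoform, lies on the X chromosome. Eda2r stood at 57.7, 63.98 and 57.2 CPM in labelled DKO, 70.98, 80.8 and 89.3 CPM in Ing1 KO, 74.3, 61.8 and 69.6 CPM in labelled Gadd45a KO and 75.04, 71.5 and 81.2 CPM in WT. Labelled DKO lay below WT and Ing1 KO and overlapped labelled Gadd45a KO. Eda2r fell in labelled DKO against WT (log2 fold change -0.35 ± 0.09, edgeR adjusted p = 0.0128) and against Ing1 KO (log2 fold change -0.43 ± 0.09, edgeR adjusted p = 0.00484). The fall against WT had an edgeR adjusted p of 0.0517 without labelled DKO replicate 1 and 0.053 without WT replicate 3.

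Sesn1 and Sesn2, sestrins that restrain mTORC1 and oxidative stress, moved in opposite directions. Sesn1 stood at 37.8, 36.9 and 33.7 CPM in labelled DKO, 23.6, 22.4 and 24.5 CPM in Ing1 KO, 26.8, 28.3 and 26.4 CPM in labelled Gadd45a KO and 27.7, 29.2 and 26.3 CPM in WT. The labelled DKO libraries lay above all others and the Ing1 KO libraries below all others. Sesn1 rose in labelled DKO against Ing1 KO (log2 fold change 0.62 ± 0.06, edgeR adjusted p = 6.32e-05), against labelled Gadd45a KO (log2 fold change 0.41 ± 0.06, edgeR adjusted p = 0.000392) and against WT (log2 fold change 0.38 ± 0.06, edgeR adjusted p = 0.000673). It fell in Ing1 KO against WT (log2 fold change -0.24 ± 0.06, edgeR adjusted p = 0.0116), with an edgeR adjusted p of 0.0619 without Ing1 KO replicate 2 and 0.0587 without WT replicate 2.

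Sesn2 stood at 90.7, 90.4 and 89.7 CPM in labelled DKO, 104, 113 and 114 CPM in Ing1 KO, 115, 107 and 106 CPM in labelled Gadd45a KO and 113, 96.2 and 97.5 CPM in WT. The labelled DKO libraries were the lowest 3 of the 12. Sesn2 fell in labelled DKO against Ing1 KO (log2 fold change -0.29 ± 0.06, edgeR adjusted p = 0.00376), against labelled Gadd45a KO (log2 fold change -0.28 ± 0.06, edgeR adjusted p = 0.00417) and against WT (log2 fold change -0.18 ± 0.06, edgeR adjusted p = 0.0438). The call against WT was lost without any 1 of the labelled DKO replicates and without WT replicate 1 (0.0892 to 0.188).

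Dram1, a lysosomal membrane protein gene that links p53 to autophagy, had the largest fall in Ing1 KO. Dram1 stood at 42.1, 41.2 and 46.2 CPM in labelled DKO, 36.2, 26.1 and 29.9 CPM in Ing1 KO, 37.1, 58.4 and 53.01 CPM in labelled Gadd45a KO and 55.3, 52.8 and 57.5 CPM in WT. The Ing1 KO libraries were the lowest 3, and labelled Gadd45a KO replicate 1, the library with the lowest sum of macrophage markers, lay near them. Dram1 fell in Ing1 KO against WT (log2 fold change -0.85 ± 0.16, edgeR adjusted p = 0.005). Against Ing1 KO its labelled DKO log2 fold change was 0.49 ± 0.16 (edgeR adjusted p = 0.0503). The macrophage sums given above overlapped between Ing1 KO and WT, and their part in the Dram1 result was not tested.

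Ak1, an adenylate kinase gene, rose in Ing1 KO. Ak1 stood at 128, 121 and 120.01 CPM in labelled DKO, 159.6, 153 and 138 CPM in Ing1 KO, 119, 132 and 124 CPM in labelled Gadd45a KO and 129.9, 112 and 123 CPM in WT. Its 3 highest libraries were those of Ing1 KO. Ak1 rose in Ing1 KO against WT (log2 fold change 0.30 ± 0.06, edgeR adjusted p = 0.00524) and fell in labelled DKO against Ing1 KO (log2 fold change -0.29 ± 0.06, edgeR adjusted p = 0.00644). Polk, a DNA polymerase that copies past lesions, differed little. Polk stood at 51.8, 53.9 and 52.7 CPM in labelled DKO, 53.8, 52.7 and 61.00 CPM in Ing1 KO, 58.6, 54.4 and 56.3 CPM in labelled Gadd45a KO and 59.2, 58.2 and 62.3 CPM in WT. Labelled DKO lay below WT and overlapped Ing1 KO. Polk fell in labelled DKO against WT (log2 fold change -0.18 ± 0.06, edgeR adjusted p = 0.0281), a call lost without labelled DKO replicate 1 or 3 or WT replicate 1 or 3 (0.054 to 0.093). Rrm2b, a ribonucleotide reductase subunit, ran from 14.8 to 18.3 CPM and Gdf15, a secreted stress factor, from 0.834 to 2.43 CPM, and neither was called in any comparison. An alternative setting called Gdf15 in labelled DKO against Ing1 KO.

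Epha2, an ephrin receptor that p53 induces, rose most in Ing1 KO after Perp, and at a smaller error. Epha2 stood at 12.9, 12.6 and 10.1 CPM in labelled DKO, 17.7, 20.04 and 17.3 CPM in Ing1 KO, 9.53, 10.3 and 9.37 CPM in labelled Gadd45a KO and 10.2, 8.64 and 9.29 CPM in WT. All 3 Ing1 KO libraries were well above all others, and labelled DKO replicate 3 overlapped WT. Epha2 rose in Ing1 KO against WT (log2 fold change 0.97 ± 0.10, edgeR adjusted p = 0.000108) and in labelled DKO against WT (log2 fold change 0.34 ± 0.10, edgeR adjusted p = 0.028), and fell in labelled DKO against Ing1 KO (log2 fold change -0.63 ± 0.10, edgeR adjusted p = 0.000871). The call in labelled DKO against WT was lost without labelled DKO replicate 1 or 2 or WT replicate 2 or 3 (0.0682 to 0.129). Sulf2, an extracellular sulfatase gene, was called in none, with 307, 321 and 466 CPM in Ing1 KO against 561, 566 and 439 CPM in WT (edgeR adjusted p = 0.0556). Alternative settings called Sulf2 in Ing1 KO and in labelled DKO, each against WT.

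Whether loss of Ing1 did the same with Gadd45a intact and with Gadd45a labelled absent was read from 2 comparisons that share no library: labelled DKO against labelled Gadd45a KO, and Ing1 KO against WT. Of the 32 genes, 11 were called in labelled DKO against labelled Gadd45a KO, 5 higher and 6 lower, with 26.4% of all genes called, 15.8% higher and 10.6% lower. Upper-quartile scaling gave 4 higher and 8 lower there. Of the 32 genes, 18 had the same sign in both comparisons (56.2%), as did 8638 of all 15098 genes (57.2%). The 8 genes called in both were 8 of the 11 and 8 of the 20. Mdm2, Btg2, Plk3 and Pmaip1 rose in both, Mdm2 with the exceptions given above. Plk2, Bbc3 and Aen fell in labelled DKO against labelled Gadd45a KO and rose in Ing1 KO against WT, and Sesn1 did the reverse. For Bbc3, Aen and Sesn1 too, calls were lost with single libraries left out, as given above. Thus 4 of 8 were opposite (50%), while among all genes called in both, 191 of 1164 were opposite (16.4%).

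**Figure D3:**
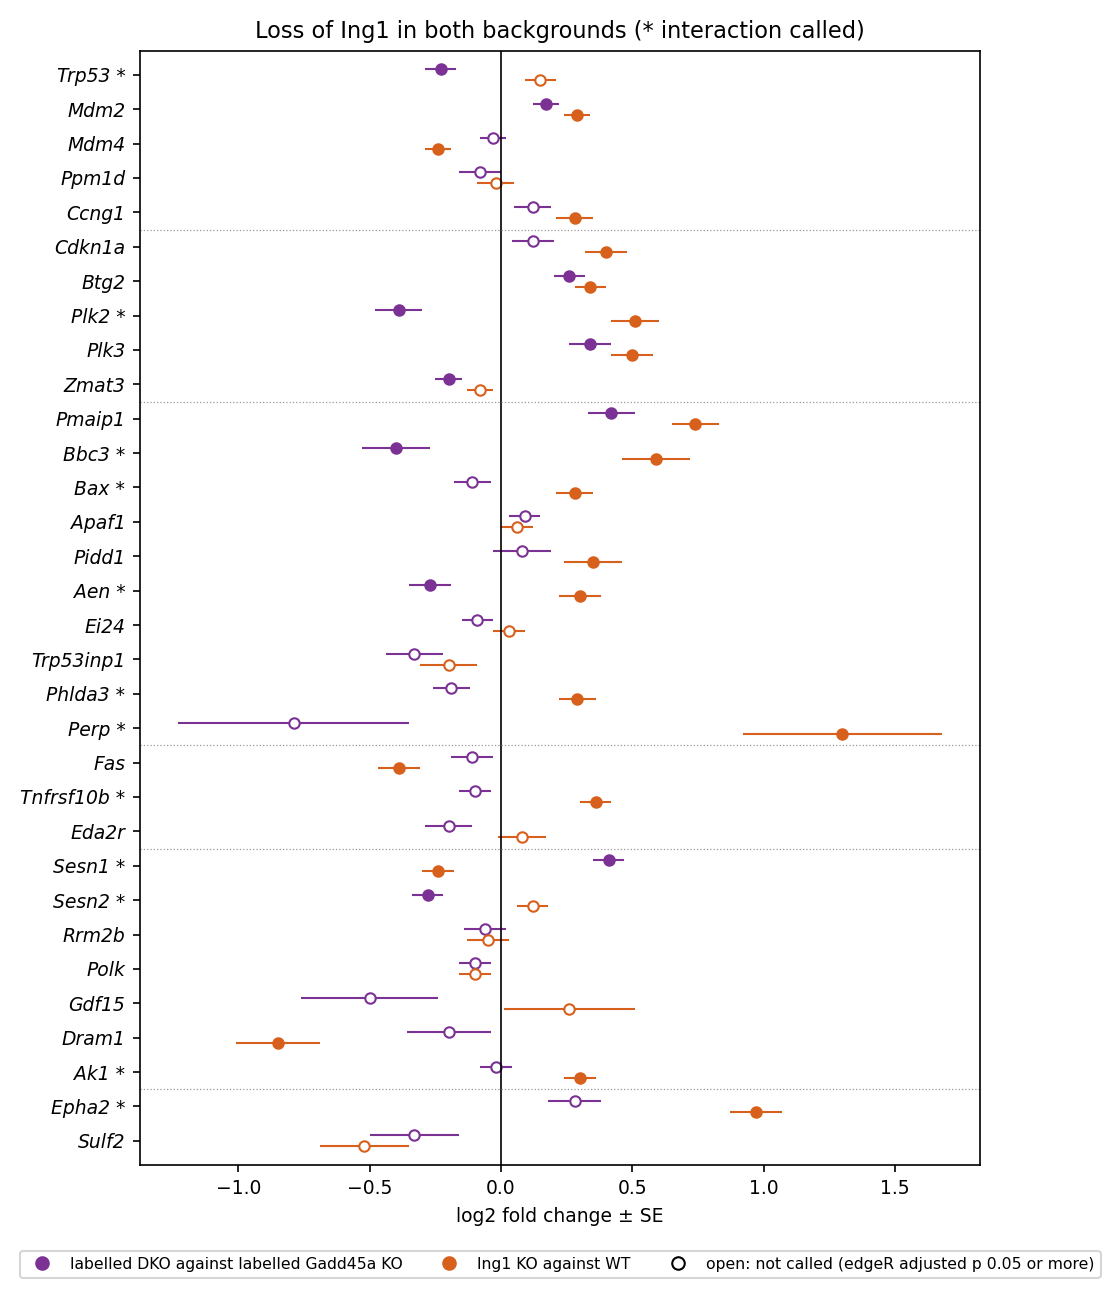
Log2 fold change ± SE of each of the 32 genes for loss of Ing1, in labelled DKO against labelled Gadd45a KO and in Ing1 KO against WT. Filled points were called at an edgeR adjusted p under 0.05, and a star marks genes whose difference between the 2 changes was called. Most apoptosis genes lie to the right of 0 in Ing1 KO against WT and to the left in labelled DKO against labelled Gadd45a KO, while Mdm2, Btg2, Plk3 and Pmaip1 lie to the right in both.

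The difference between these changes was tested in the same fit, as labelled DKO against labelled Gadd45a KO less Ing1 KO against WT. It was called for 12 of the 32 genes, 1 positive and 11 negative, with 17.8% of all genes called, 10.4% positive and 7.4% negative, and its median was -0.22 beside 0.01 over all genes. The negative ones held 5 of the 10 apoptosis genes. Perp had the largest difference (log2 difference -2.08 ± 0.59, edgeR adjusted p = 0.0317), followed by Bbc3 (log2 difference -0.99 ± 0.18, edgeR adjusted p = 0.0053), Plk2 (log2 difference -0.90 ± 0.12, edgeR adjusted p = 0.00167) and Epha2 (log2 difference -0.69 ± 0.14, edgeR adjusted p = 0.00815). Aen (log2 difference -0.58 ± 0.11, edgeR adjusted p = 0.00604), Phlda3 (log2 difference -0.48 ± 0.10, edgeR adjusted p = 0.00727), Tnfrsf10b (log2 difference -0.46 ± 0.09, edgeR adjusted p = 0.00615) and Bax (log2 difference -0.40 ± 0.10, edgeR adjusted p = 0.0175) were next. Smaller ones were those of Sesn2 (log2 difference -0.39 ± 0.08, edgeR adjusted p = 0.00922), Trp53 (log2 difference -0.38 ± 0.08, edgeR adjusted p = 0.00963) and Ak1 (log2 difference -0.33 ± 0.09, edgeR adjusted p = 0.0288). The positive one was Sesn1 (log2 difference 0.65 ± 0.08, edgeR adjusted p = 0.00101). The Perp call was lost with no filter on low counts (edgeR adjusted p = 0.0545) and when any 1 of 6 libraries was left out (0.0514 to 0.0808) and the Ak1 call when any 1 of 8 was (0.0511 to 0.0762), the libraries being Ing1 KO replicates 2 and 3, labelled DKO replicates 1 and 3 and WT replicates 2 and 3 for Perp, and Ing1 KO replicates 1 and 2, labelled DKO replicates 2 and 3, labelled Gadd45a KO replicates 2 and 3 and WT replicates 2 and 3 for Ak1.

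Both genotypes without Ing1 were also compared directly. In labelled DKO against Ing1 KO, 17 of the 32 genes were called, 1 higher and 16 lower, with 24.8% of all genes called, 14.9% higher and 9.88% lower. The median log2 fold change was -0.23, beside 0.01 over all genes. Sesn1 was the gene that rose. Those that fell held 6 of the 10 apoptosis genes, 2 of the 3 death receptors and 3 of the 5 core genes. For each of the 17 the libraries of both groups did not overlap. These genes were picked by their calls, so this adds no separate support, and the share over all genes was not computed. This comparison shares its labelled DKO libraries with the one against labelled Gadd45a KO and its Ing1 KO libraries with the one against WT.

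Of 20 listed regulators upstream of p53, kinases, acetylases, ligases and partners, 19 were tested. In Ing1 KO against WT 3 rose and none fell, where 12.1% of all genes rose and 11.4% fell, and the median log2 fold change of the 19 was -0.01. The 3 were Cdkn2a, whose Arf product inhibits Mdm2, Hipk2, a kinase that phosphorylates p53, and Ppp1r13l, which encodes iASPP, an inhibitor of p53. Cdkn2a stood at 32.7, 36.2 and 34.96 CPM in labelled DKO, 52.2, 60.7 and 53.6 CPM in Ing1 KO, 39.01, 37.1 and 36.3 CPM in labelled Gadd45a KO and 43.3, 31.9 and 34.6 CPM in WT. Ing1 KO held the highest 3 libraries. Labelled DKO lay below labelled Gadd45a KO with no overlap, and WT overlapped both. Cdkn2a rose in Ing1 KO against WT (log2 fold change 0.60 ± 0.10, edgeR adjusted p = 0.00138) and fell in labelled DKO against Ing1 KO (log2 fold change -0.68 ± 0.10, edgeR adjusted p = 0.000685). The counts do not tell the Arf from the p16 transcript of this locus. Hipk2 (log2 fold change 0.68 ± 0.10, edgeR adjusted p = 0.000657) and Ppp1r13l (log2 fold change 0.60 ± 0.08, edgeR adjusted p = 0.000472) rose in Ing1 KO and also in labelled DKO against WT (log2 fold change 0.38 ± 0.10, edgeR adjusted p = 0.0113 for Hipk2, log2 fold change 0.42 ± 0.08, edgeR adjusted p = 0.00258 for Ppp1r13l). The Hipk2 call in labelled DKO was lost without labelled DKO replicate 1 (edgeR adjusted p = 0.0548).

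Against WT, 2 regulators rose and 2 fell in labelled DKO, among them Rchy1, which encodes the p53 ubiquitin ligase Pirh2 (log2 fold change -0.39 ± 0.07, edgeR adjusted p = 0.0011). It stood at 33.5, 36.6 and 38.01 CPM in labelled DKO against 45.4, 46.4 and 49.4 CPM in WT, with no overlap. Against labelled Gadd45a KO, 2 rose and 3 fell, with Chek2 (log2 fold change 0.39 ± 0.10, edgeR adjusted p = 0.0102) and Chek1 (log2 fold change 0.33 ± 0.09, edgeR adjusted p = 0.0197), the checkpoint kinases, higher and Rchy1 lower (log2 fold change -0.37 ± 0.07, edgeR adjusted p = 0.00143). Chek2 was not called without labelled DKO replicate 1 (edgeR adjusted p = 0.0511), nor Chek1 without labelled DKO replicate 2 or 3 or labelled Gadd45a KO replicate 1 or 2 (0.0574 to 0.0914). Against Ing1 KO the counts were 2 and 3 again, with Rchy1 lower (log2 fold change -0.35 ± 0.07, edgeR adjusted p = 0.00231) and Chek2 higher (log2 fold change 0.36 ± 0.10, edgeR adjusted p = 0.0179), the second call being lost without labelled DKO replicate 1 or 2 or Ing1 KO replicate 2 (0.0632 to 0.0782). The 4 called against WT became 2 without labelled DKO replicate 1. The 5 called against labelled Gadd45a KO became 2 or 3 without labelled DKO replicate 1 or 2 or labelled Gadd45a KO replicate 1 or 2. The 5 called against Ing1 KO became 2 or 3 without labelled DKO replicate 1 or 2 or Ing1 KO replicate 2. Over all genes, 25.9% were called in labelled DKO against WT, 26.4% against labelled Gadd45a KO and 24.8% against Ing1 KO. The counts with all libraries, of the 19, were near these shares. None of the 19 was called in labelled Gadd45a KO against WT.

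Of 28 further targets outside the set, 27 were tested. In Ing1 KO against WT 5 rose and 2 fell, with a median of 0.05. Those named by smallest p were Gtse1, a cell cycle gene (log2 fold change 0.49 ± 0.09, edgeR adjusted p = 0.00312), Tob1, an antiproliferative gene (log2 fold change 0.27 ± 0.06, edgeR adjusted p = 0.00577), and Ddb2, a DNA damage recognition gene, which fell (log2 fold change -0.54 ± 0.12, edgeR adjusted p = 0.00694). Against WT, 5 rose and 3 fell in labelled DKO. Cyfip2, a cytoskeletal regulator, stood at 12.7, 12.6 and 13.95 CPM in labelled DKO against 6.18, 7.54 and 6.59 CPM in WT (log2 fold change 0.95 ± 0.18, edgeR adjusted p = 0.0026). Ddit4, an mTORC1 inhibitor, rose (log2 fold change 0.54 ± 0.10, edgeR adjusted p = 0.00324), and Ephx1, an epoxide hydrolase, fell (log2 fold change -0.48 ± 0.09, edgeR adjusted p = 0.00276). In labelled DKO against labelled Gadd45a KO 6 rose and 3 fell, Rap2b, a small GTPase (log2 fold change 0.37 ± 0.06, edgeR adjusted p = 0.00113), Cyfip2 (log2 fold change 0.98 ± 0.18, edgeR adjusted p = 0.00225) and Ckap2, a spindle protein gene (log2 fold change 0.41 ± 0.08, edgeR adjusted p = 0.00261), having the smallest p among those. Labelled DKO against Ing1 KO gave 4 higher and 4 lower, with Cyfip2 higher (log2 fold change 0.99 ± 0.18, edgeR adjusted p = 0.00245) and Ephx1 (log2 fold change -0.53 ± 0.09, edgeR adjusted p = 0.00199) and Tob1 (log2 fold change -0.31 ± 0.06, edgeR adjusted p = 0.00245) lower, and labelled Gadd45a KO against WT gave none. The 7 called in Ing1 KO became 4 without Ing1 KO replicate 2 or WT replicate 2, and the 9 called against labelled Gadd45a KO became 5 without labelled DKO replicate 1 or 2 or labelled Gadd45a KO replicate 3. Over all genes, 23.5% were called in Ing1 KO against WT, 12.1% higher and 11.4% lower. In labelled DKO 25.9% were called against WT, 26.4% against labelled Gadd45a KO and 24.8% against Ing1 KO. The counts called with all libraries, of the 27, were somewhat above these shares, and the gap was not tested.

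Genes that p53 lowers through p21 and the DREAM repressor complex, a list of 26 genes of the cell cycle, differed between the genotypes in another way. All 26 rose in labelled DKO against WT (median log2 fold change 0.45), where 15.6% of all genes rose. All 26 rose against labelled Gadd45a KO, where 15.8% of all genes did, with a median of 0.52. Against Ing1 KO 22 rose, where 14.9% of all genes did, with a median of 0.35. In Ing1 KO against WT 4 of the 26 rose, a share near the 12.1% of all genes, and none fell, with a median of 0.05. Those that rose included Plk1, a mitotic kinase (log2 fold change 0.44 ± 0.08, edgeR adjusted p = 0.00252), Foxm1, a transcription factor of the mitotic program (log2 fold change 0.26 ± 0.08, edgeR adjusted p = 0.0245), and Cdc20, an activator of the anaphase-promoting complex (log2 fold change 0.26 ± 0.08, edgeR adjusted p = 0.0298). The 4 became 1 without Ing1 KO replicate 2, without WT replicate 1 or 3, or with only the compared groups in the fit. Foxm1 then had an edgeR adjusted p of 0.0799 to 0.125 and Cdc20, whose call was also lost without WT replicate 2, of 0.0534 to 0.15 over the left-out libraries. Mcm6 stood at 112, 113 and 115 CPM in labelled DKO, 82.8, 84.7 and 80.8 CPM in Ing1 KO, 78.1, 80.8 and 80.6 CPM in labelled Gadd45a KO and 77.5, 89.8 and 81.2 CPM in WT. Mcm6 is a subunit of the replicative helicase, and its labelled DKO libraries lay above the other 9. It rose in labelled DKO against WT (log2 fold change 0.45 ± 0.05, edgeR adjusted p = 7.65e-05), as did Bub1b, of the spindle checkpoint (log2 fold change 0.64 ± 0.07, edgeR adjusted p = 0.000102), and Plk1 (log2 fold change 0.67 ± 0.08, edgeR adjusted p = 0.000167). Mcm6, Bub1b and Mcm3 had the smallest p of the list against labelled Gadd45a KO (log2 fold changes 0.51 ± 0.05, 0.66 ± 0.07 and 0.58 ± 0.07) and against Ing1 KO (0.46 ± 0.05, 0.52 ± 0.07 and 0.58 ± 0.07). The difference between the 2 changes on loss of Ing1 was called positive for 20 of the 26, Mcm6 (log2 difference 0.51 ± 0.07, edgeR adjusted p = 0.00132), Mcm3 (log2 difference 0.63 ± 0.10, edgeR adjusted p = 0.00233) and Ccna2, cyclin A2 (log2 difference 0.61 ± 0.11, edgeR adjusted p = 0.00445), having the smallest p. In labelled Gadd45a KO against WT none was called. The macrophage markers given above rose in the same libraries as these genes, and their part was not tested.

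**Figure D4:**
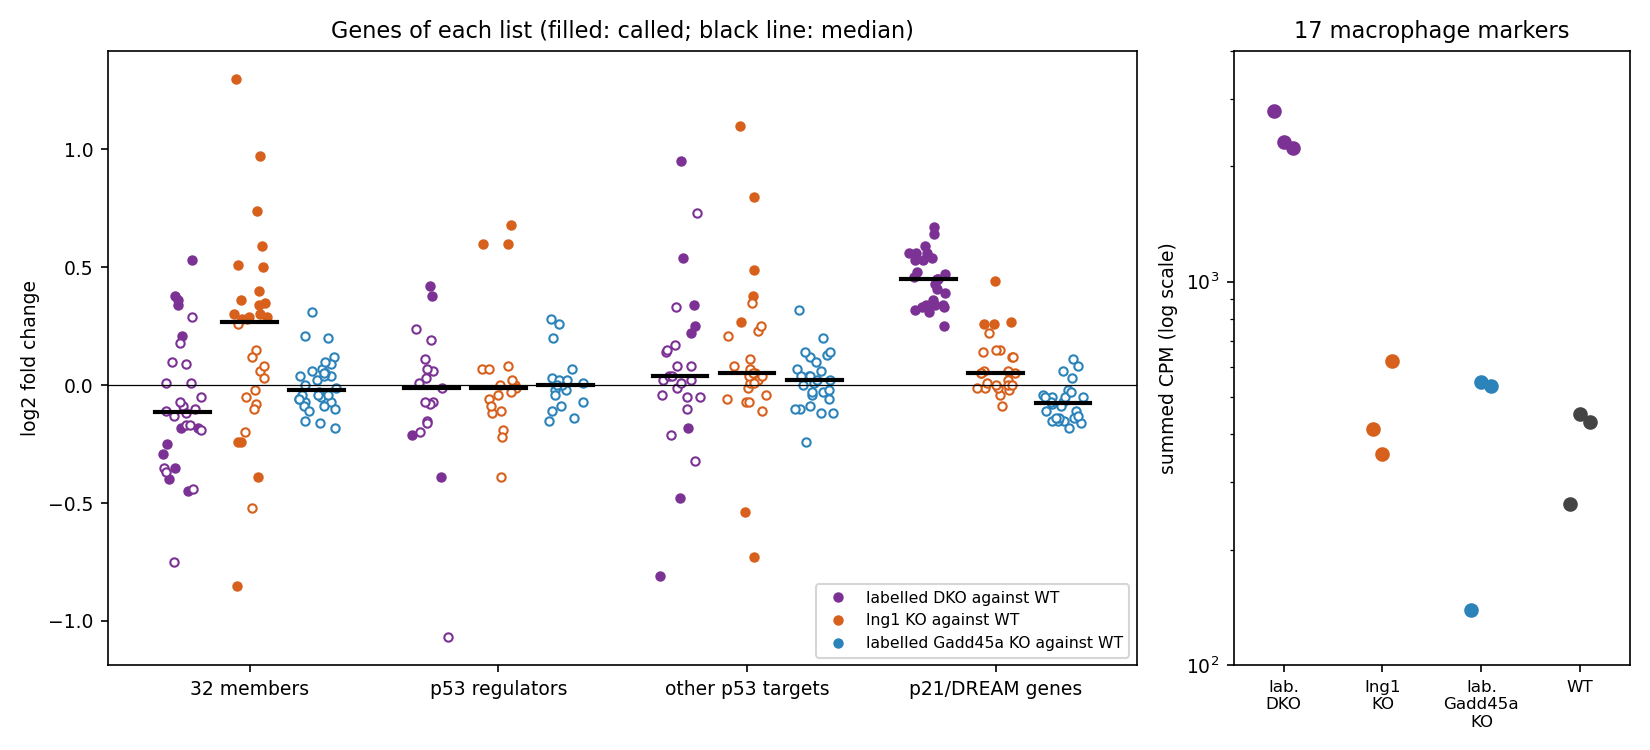
Left, log2 fold changes of single genes (points; filled where called; black line, median) for the 32 genes, the p53 regulators, the other p53 targets and the genes lowered through p21 and DREAM, in labelled DKO, Ing1 KO and labelled Gadd45a KO, each against WT. Right, summed CPM of 17 macrophage markers per library on a log axis. All 26 p21 and DREAM genes lie above 0 in labelled DKO, where the macrophage sums of 2235 to 2794 CPM lie above all other libraries.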

How the data were processed

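RNA-seq was done on 12 libraries of mouse embryonic fibroblasts in 4 genotype groups of 3. The values are raw counts per gene as the authors deposited them, 1 table per library. The submitters' processing notes name TopHat2 2.0.9, Bowtie2 2.1.0, HTSeq 0.5.4 and DESeq, and the build mm9 (NCBIM37). Which strand setting the counting used was not stated in them. Per the labels' protocols, the kit selected polyadenylated RNA and did not mark strand, and reads had 51 cycles. A gene and its antisense partner, or a near-identical copy, can thus share or lose reads.

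Summary lines were left out of library totals, and they held 23.89% to 24.91% of the reads listed. No pair of libraries was identical, and a chi-square test of replicates gave 5.65 to 34.04 per degree of freedom, where counting error alone gives about 1. Genotypes were compared with edgeR 4.0.16 in R 4.3.3, in 1 quasi-likelihood fit of all 12 libraries with TMM scaling, filterByExpr (15098 of 37991 genes left) and robust dispersions, with 2-sided tests. A gene was called at a Benjamini-Hochberg adjusted p under 0.05 over all genes tested. The fit had 8 residual degrees of freedom, and replicates varied by 8.2% (biological coefficient of variation). Fold changes are log2 with their standard error (SE). The steps were tested on simulated counts. Of changes of 1.25-fold, 24% to 36% were called in the comparisons of groups and 8% for the difference between backgrounds. Of changes of 1.5-fold, 60% to 74% and 50% were. A gene that was not called may thus still have changed by such folds. Symbols, exon lengths and overlaps came from GENCODE M21, another build than the authors' mm9, and promoters from RefSeq on GRCm38.p6, so no coordinates are mixed between builds.

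The 32 genes, the 3 further lists and the cell type markers were chosen with earlier results of these data known. Members called in any of the 6 comparisons are given per library, and up to 3 called genes with the smallest adjusted p are named from each further list and comparison. Hipk2, Rchy1, Cyfip2 and Bub1b are given for the difference between backgrounds because another comparison names them. Alternatives were other scalings (RLE, upper quartile, library totals), no filter, DESeq2 1.42.0, a fit of only the groups compared, a replicate block, and each library left out in turn. Replicate numbers were checked for pairing: deviations of same-numbered libraries from their group means correlated at r over 0.1 in all 3 pairs of labelled Gadd45a KO and WT (0.105 to 0.336), and in no other pair of groups in all 3. With the block, 1 gene was called in that comparison, as without it, and 0 of the 32.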

Additional observations from a re-analysis of the deposited data

Results flagged for a closer look

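The effect of losing Ing1 differed between the background labelled Gadd45a KO and the WT background for 25 named genes by edgeR's test of the difference itself (adjusted p under 0.05, over all 15098 genes). Of all genes, 17.8% were called in this test. The 25 are members or genes named by their calls, so their number only describes that choice. The values are log2 differences, the change in labelled DKO against labelled Gadd45a KO less the change in Ing1 KO against WT. Of the 32 p53 genes, Trp53 was at -0.38, Plk2 at -0.90, Bbc3 at -0.99, Bax at -0.40, Aen at -0.58, Phlda3 at -0.48, Perp at -2.08 and Tnfrsf10b at -0.46. Sesn2 was at -0.39, Ak1 at -0.33, Epha2 at -0.69 and Sesn1 at 0.65. The Perp and Ak1 calls were lost with single libraries left out, as given above.

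Among the regulators, Cdkn2a was at -0.71, Hipk2 at -0.50, Ppp1r13l at -0.45, Rchy1 at -0.33 and Chek2 at 0.51. Among the further targets, Cyfip2 was at 1.02, Rap2b at 0.42, Ckap2 at 0.48 and Ephx1 at -0.53. Among the genes lowered through p21 and DREAM, Ccna2 was at 0.61, Bub1b at 0.54, Mcm3 at 0.63 and Mcm6 at 0.51. Some of these calls were lost with 1 library left out: Chek2 without Ing1 KO replicate 2, labelled DKO replicate 1 or 2, labelled Gadd45a KO replicate 1 or 3 or WT replicate 2 or 3 (edgeR adjusted p = 0.0509 to 0.0758), and Hipk2 without Ing1 KO replicate 2, labelled DKO replicate 2 or 3, labelled Gadd45a KO replicate 1 or 3 or WT replicate 2 or 3 (0.0513 to 0.0699). Ppp1r13l was lost without Ing1 KO replicate 2 or WT replicate 2 or 3 (0.0523 to 0.0588), and Ephx1 without WT replicate 2 or 3 (0.0547 and 0.0530). Rchy1 was lost without Ing1 KO replicate 2, labelled DKO replicate 1 or 2, labelled Gadd45a KO replicate 1 or 3 or WT replicate 2 (0.0542 to 0.0709), and Cyfip2 without Ing1 KO replicate 2 or WT replicate 2 (0.0568 and 0.0622). All of these rest on the labels of the groups in which Gadd45a RNA was higher than in WT, and on the labelled DKO libraries, whose 17 macrophage markers rose.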

How the results depend on the processing

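No call of the 32 genes changed sign under any alternative. In Ing1 KO against WT 14 of the 20 calls held under all 13 alternatives, in labelled DKO against WT 5 of 12, against labelled Gadd45a KO 8 of 11, against Ing1 KO 15 of 17, and, under the 18 alternatives for the difference between both changes on loss of Ing1, 10 of 12. Alternatives also added calls. In Ing1 KO against WT these were Polk, Sesn2, Sulf2, Trp53 and Trp53inp1. In labelled DKO against WT they were Aen, Cdkn1a, Dram1, Ei24, Phlda3, Pidd1, Ppm1d and Sulf2. Against labelled Gadd45a KO they were Apaf1, Dram1, Eda2r, Epha2, Phlda3 and Trp53inp1. Against Ing1 KO they were Cdkn1a, Dram1, Ei24, Gdf15 and Mdm4. For the difference they were Dram1, Eda2r, Fas, Mdm4 and Pmaip1. The member counts with 1 library left out ran from 15 to 22 in Ing1 KO against WT, 5 to 11 in labelled DKO against WT, 9 to 13 against labelled Gadd45a KO, 16 to 21 against Ing1 KO, and 10 to 15 for the difference. Counts over all genes ran from 1858 to 3548 in Ing1 KO against WT (3543 with all libraries), 1 to 13 in labelled Gadd45a KO against WT (1 with all), 2249 to 3676 in labelled DKO against Ing1 KO (3740 with all) and 1300 to 3285 for the difference (2687 with all). In labelled Gadd45a KO against WT, DESeq2 called 28 genes and a fit of only these groups called 0, with 0 of the 32 in each. The causes were not tested. Upper-quartile scaling turned the calls over all genes to 1872 higher and 2179 lower in labelled DKO against WT (2348 and 1561 with TMM), and to 1887 and 2234 against labelled Gadd45a KO (2387 and 1601 with TMM). The median of all genes stayed between -0.044 and 0.017 on the log2 scale in the main fit and under every alternative, left-out libraries included. In the 5 pairs of groups other than WT and labelled Gadd45a KO, same-numbered libraries did not all deviate together (r from -0.177 to 0.206), so their numbers are not taken to pair them. With the replicate number as a block, the members called were 20 in Ing1 KO against WT, 0 in labelled Gadd45a KO against WT, 11 in labelled DKO against WT, 10 against labelled Gadd45a KO, 17 against Ing1 KO and 11 for the difference. Under the block, Sesn2 in labelled DKO against WT had an edgeR adjusted p of 0.0585, Bbc3 against labelled Gadd45a KO 0.0568 and Perp for the difference 0.0507. Counting depth limits Perp and Gdf15 most, with at least 16 counts in every library.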
